A study of Homo sapiens with 101 samples.

Results

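HRAS was knocked down with a short hairpin RNA in SW620, an established human colorectal cancer cell line derived from a lymph node metastasis. The 6 arrays titled as HRAS knockdown in SW620 were chosen by title and set against 6 arrays with an empty vector and 6 with a non-target hairpin in the same line, 18 of the 50 SW620 arrays of the study. In both lines the study also knocked down CDK5, MAP2K1, MAP2K2, MAPK3 and NGFR. All values are log2 expression levels from a whole-genome Affymetrix array, with 19775 genes tested and the brightest probe set kept per gene. Replicates 1 and 2 were named in styles of their own and replicates 3 to 6 in a shared style, and each style was taken as a round in which knockdown and controls were compared. The labels give hairpin code B3 for the HRAS array of replicate 1 and A1 for those of replicates 3 to 6, with none for replicate 2. The arm may therefore hold more than 1 hairpin, and hairpin code and round cannot be told apart. Nothing in the labels says that replicates 3 to 6 are separate cultures, so the spread between them may be technical. The p-values rest on a spread estimated over all arrays of the study, in both lines, and count replicates 3 to 6 as separate arrays.

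HRAS encodes a small membrane-bound GTPase. In its GTP-bound state it passes signals from growth factor receptors to the RAF, MEK and ERK kinases, to phosphatidylinositol 3-kinase and to other effectors. ERK activity induces immediate early transcription factors such as FOS and EGR1, and feedback inhibitors such as DUSP6 and SPRY4. Signalling through RAS is also known to bear on the epithelial state, on entry into the cell cycle and on metabolism in colorectal cancer cells.

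Gene groups that differed from the controls are described below. Stretches of promoter from 4 of them are shown first because each group has a well-known element. Not all members hold it: 12 of 41 G1/S members and 8 of 27 ATF4 members with a promoter entry did. The stretches are read from RefSeq on GRCh38.p14, 5′ to 3′ on the gene's strand, and end before the transcription start listed. Of the 19775 genes measured, 15384 matched a promoter entry, and every start listed for a gene was searched on both strands from 250 bases before to 50 bases after it. The genes shown were chosen after their values were seen, as the members with the smallest p that hold the element before the start. Capitals mark TTTGAA (the cell cycle homology region) and CCAAT in CDC20 (chr1:43358778-43358955, plus strand) and PRC1 (chr15:90994536-90994613, minus strand). They mark GGCGGGAA (E2F) in UHRF1 (chr19:4909372-4909429, plus strand). In CHAC1 (chr15:40953237-40953294, plus strand) and ASNS (chr7:97872444-97872501, minus strand) they mark TGATGNAA, bound by ATF4 with its C/EBP partners. In EPSTI1 (chr13:42992257-42992316, minus strand) and PARP14 (chr3:122680785-122680838, plus strand) they mark the interferon-stimulated response element, searched as GAAA, any 2 bases and GAAA.
CDC20: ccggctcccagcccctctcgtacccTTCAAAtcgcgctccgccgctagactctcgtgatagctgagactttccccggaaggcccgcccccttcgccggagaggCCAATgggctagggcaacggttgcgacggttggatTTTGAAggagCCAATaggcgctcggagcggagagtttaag
PRC1: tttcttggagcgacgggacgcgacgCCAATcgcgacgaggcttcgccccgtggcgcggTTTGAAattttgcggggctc
UHRF1: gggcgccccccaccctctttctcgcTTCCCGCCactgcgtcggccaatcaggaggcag
CHAC1: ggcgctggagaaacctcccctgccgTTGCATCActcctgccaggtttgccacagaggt
ASNS: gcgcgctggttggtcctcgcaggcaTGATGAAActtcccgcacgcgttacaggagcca
EPSTI1: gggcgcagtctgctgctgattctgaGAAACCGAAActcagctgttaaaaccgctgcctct
PARP14: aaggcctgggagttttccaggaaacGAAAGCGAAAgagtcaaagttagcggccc

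RNA quality overlapped between the arms compared in SW620. The 3′ minus 5′ signal of GAPDH, which rises as RNA degrades, lay between 0.12 and 0.32 in the 6 HRAS arrays and between 0.056 and 0.40 in the 12 controls. In SW480, replicates 3 and 4 of the HRAS arm stood apart at 1.39 and 1.47, against 0.049 to 0.49 in the vector controls of that line. An index of SW620 over SW480 genes, set on the non-transduced arrays, lay between 3.21 and 4.17 in the HRAS arrays of SW620, between 3.56 and 4.31 in their vector controls and at or below 2.14 on the SW480 arrays. It was below every control of its round in 5 of 6 HRAS arrays, at 3.21 against 3.85 and 3.86 in replicate 1 and 4.10 to 4.17 against 4.22 to 4.31 in replicates 3 to 6, and its part in the results was not tested. In all, 3 arrays of other SW620 knockdowns had degraded RNA (GAPDH 3′ minus 5′ of 2.95 to 6.04). They enter the shared estimate of the spread and, directly, the comparison with the other knockdowns. The HRAS arrays and their controls did not include them. All 6136 genes called below were also called without those 3 arrays, among 7553.

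The level of HRAS fell in all rounds but by unequal amounts. The 6 HRAS hairpin arrays read 6.75 in replicate 1, 7.34 in replicate 2, and 7.59, 7.61, 7.70 and 7.59 in replicates 3 to 6. The empty vector arrays read 8.82, 8.17, 7.96, 8.02, 8.09 and 8.03 in the same order, and the non-target arrays 8.67, 8.00, 8.10, 8.07, 8.08 and 8.02. Every HRAS hairpin array was below all controls, and the groups did not overlap. The difference from the controls was -1.99 in replicate 1, -0.74 in replicate 2 and -0.42 in replicates 3 to 6. Over all rounds HRAS fell 1.67-fold (log2 difference -0.74 ± 0.28, SE; adjusted p = 0.0372, limma with Benjamini-Hochberg adjustment, n = 6 against 12). That call ended when replicate 1, 3, 4, 5 or 6 was left out (adjusted p up to 0.131) and when either control was used alone (adjusted p = 0.0825 for the empty vector and 0.0953 for the non-target hairpin). In the fit of only these 18 arrays the adjusted p was 0.000418. None of the other 5 genes aimed at in the study was called in the HRAS arm. The nearest was MAPK3, which encodes an ERK kinase, at -0.18 ± 0.08 (adjusted p = 0.0739).

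**Figure D1:**
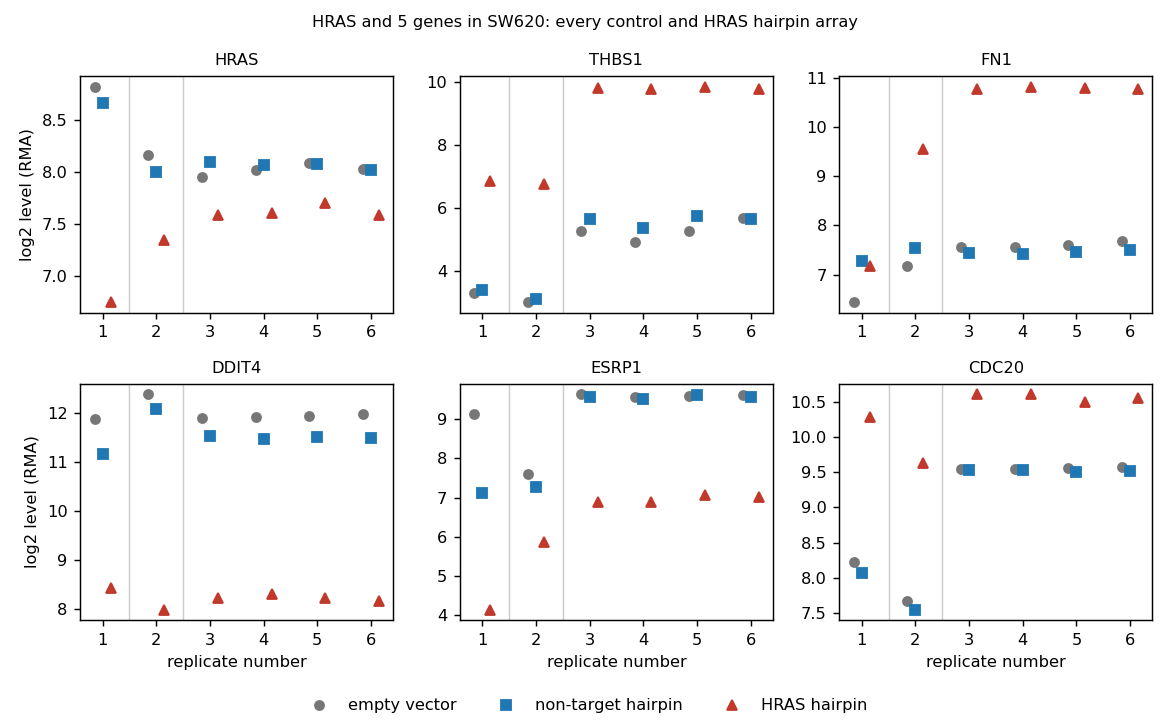
Log2 level of HRAS, THBS1, FN1, DDIT4, ESRP1 and CDC20 (vertical axis, with a scale of its own in each panel) in each array by replicate number (horizontal axis), for the empty vector, the non-target hairpin and the HRAS hairpin in SW620. Vertical lines divide the rounds; each marker is 1 array. HRAS hairpin arrays lie below their controls for HRAS, DDIT4 and ESRP1 and above them for THBS1 and CDC20, and the 4 arrays of replicates 3 to 6 lie close together.

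Against the 12 controls, 6136 genes (31%) passed the adjusted p of 0.05, 2806 higher (14.2%) and 3330 lower (16.8%), and 637 of them differed 2-fold or more (154 higher and 483 lower). For 4812 of the called genes the difference had 1 sign in all 3 rounds. Across genes the differences of separate rounds correlated with r of 0.55 to 0.58; genes are not independent replicates, and the rounds share no arrays. The median difference of all genes was -0.01. The shares of 14.2% higher and 16.8% lower are those to set beside the counts of list members below. The background between both kinds of control, the non-target hairpin against the empty vector, was 1 gene (0.00506%), TULP3, and 477 genes at an unadjusted p under 0.05. That count depended on the spread used, since replicates 3 to 6 alone gave 831 genes for the same comparison and a fit of only the compared arrays 971.

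The largest rises included genes of the extracellular matrix, adhesion and secretory granules. THBS1, which encodes the matrix glycoprotein thrombospondin 1, read 6.86, 6.75, 9.81, 9.78, 9.84 and 9.76 in the HRAS arrays. It read 3.02 to 5.67 with the empty vector and 3.11 to 5.74 with the non-target hairpin. The groups did not overlap, and the difference of 4.11 ± 0.26 (17.2-fold; adjusted p = 3.23e-22, limma) was the largest rise that the naming rule allowed. Against the non-transduced arrays the difference was 2.51 (adjusted p = 7.19e-05, limma), and those arrays read 3.11 to 8.01. CADM1, an immunoglobulin cell adhesion molecule, rose by 2.76 ± 0.19, with 1.41 in replicate 1, 1.43 in replicate 2 and 3.43 in replicates 3 to 6. FN1, fibronectin, rose by 2.59 ± 0.23, but in replicate 1 its level of 7.18 lay between the empty vector (6.45) and the non-target hairpin (7.27), and the rise came in replicates 2 (2.19) and 3 to 6 (3.26). TNC, the matrix protein tenascin C, rose by 1.98 ± 0.34, with 4.16 in replicate 1 and 1.21 in replicates 3 to 6.

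Further genes among the 20 largest rises had other known roles. CHGB, a chromogranin of secretory granules, rose by 2.15 ± 0.22 and similarly in each round (2.03, 2.53 and 2.09). SOX2, a transcription factor of stem and progenitor cells, read 9.51 to 10.88 in the HRAS arrays and 7.34 to 9.24 in the controls and rose by 1.87 ± 0.27. DEFA5, an antimicrobial peptide of intestinal Paneth cells, read 5.85 and 5.39 in replicates 1 and 2 and 9.04 to 9.12 in replicates 3 to 6, against 4.84 to 5.83 in all controls. Its difference of 2.52 ± 0.44 therefore rests on the last round. DKK1, a secreted Wnt inhibitor, rose by 4.41 in replicate 1, by 0.017 in replicate 2 and by 1.31 in replicates 3 to 6. GALNT10, which starts O-linked glycans, rose by 1.79 ± 0.18 (1.47, 2.50 and 1.69 by round). RMST, a long noncoding RNA, rose by 1.84 ± 0.13, and RASSF10, of the RAS association domain family, by 1.54 ± 0.16. Of the 20 largest rises, 18 had all 6 HRAS arrays above every control of their round, which 11.4% of all genes did. The 20 were chosen by size and sign on these same arrays, so that count is no separate support.

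The largest falls included genes of the stress response, ion transport and secretion. LEMD1, a cancer-testis gene, read 4.60 to 5.11 in the HRAS arrays (median 4.76) and 7.07 to 8.98 in the controls (median 8.81), a fall of 3.66 ± 0.49 on the log2 scale. DDIT4, an inhibitor of mTORC1 that is induced by stress, read 8.42, 7.98, 8.23, 8.30, 8.22 and 8.17 in the HRAS arrays and 11.15 to 12.37 in the controls. It fell by 3.54 ± 0.39, or 11.6-fold (adjusted p = 5.42e-12, limma). ANO1, a calcium-activated chloride channel, fell by 3.31 ± 0.35, and its HRAS arrays (4.72 to 5.93) lay below all controls (7.53 to 9.13). TUBB2B, a beta tubulin, fell by 3.20 ± 0.30, and IGFBP1, a secreted binder of insulin-like growth factors, by 3.17 ± 0.28. SERPINA1, the protease inhibitor alpha-1 antitrypsin, fell by 2.93 ± 0.26, with -4.56 in replicate 1, -1.45 in replicate 2 and -2.89 in replicates 3 to 6. ASS1, which makes argininosuccinate for arginine synthesis, fell by 2.73 ± 0.31, and CST7, a cysteine protease inhibitor, by 3.04 ± 0.28. All 20 largest falls had every HRAS array below every control of its round, which 11% of all genes did. They too were chosen by size and sign on these arrays, so that count is no separate support.

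**Figure D2:**
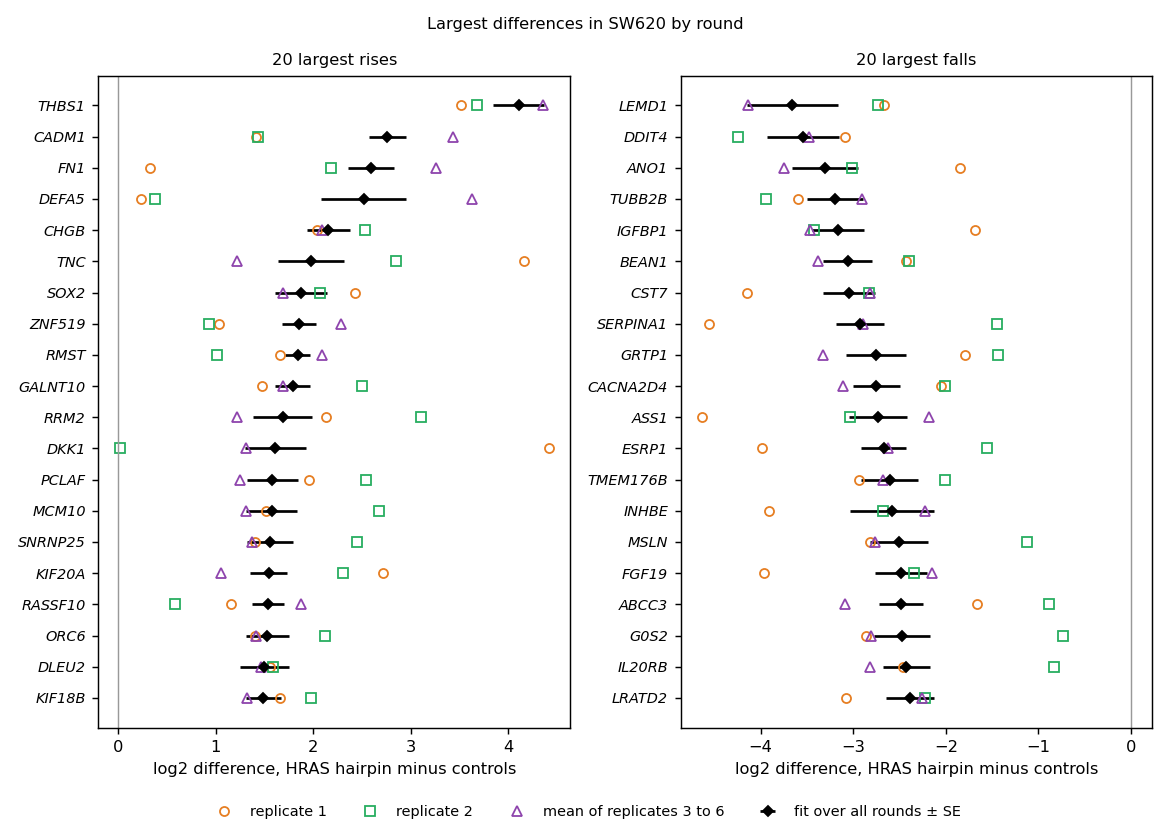
Log2 difference of the HRAS hairpin from the controls of the same round for the 20 largest rises (left) and falls (right) in SW620. Open markers give replicate 1, replicate 2 and the mean of replicates 3 to 6; black diamonds give the fit over all rounds with its SE. THBS1 lies between 3.51 and 4.36 in all rounds, whereas DEFA5 and DKK1 differ widely between rounds.

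Epithelial genes fell together. Of 31 measured members of the epithelial list, 21 fell and 0 rose, with a median difference of -0.68. ESRP1, which directs epithelial splicing, read 4.14, 5.87, 6.89, 6.88, 7.08 and 7.01 in the HRAS arrays and 7.13 to 9.64 in the controls. It was below every control of its round in all 6 arrays and fell by 2.67 ± 0.24 (adjusted p = 2.47e-15, limma). CDH1, the adhesion protein E-cadherin, read 5.94 to 7.56 against 8.21 to 9.78, and fell by 2.12 ± 0.31. CLDN7, a tight junction claudin, fell by 1.82 ± 0.21, and OVOL2, a transcription factor that maintains epithelia, by 1.20 ± 0.11. Against the non-transduced SW620 arrays, an alternative added after the data were seen, 6 of the 31 genes were lower and 0 higher (median -0.45). Of all genes 2.79% were lower and 3.26% higher there. ESRP1 was among the 6 lower genes (-2.23, adjusted p = 0.000109, limma). RNA was measured in bulk, so a change in every cell and a change in the share of cells of a kind cannot be told apart. EPCAM fell by 0.76 ± 0.14 and MARVELD2, a protein of tricellular junctions, by 0.68 ± 0.12. GRHL2, another epithelial transcription factor, was not called at 0.00 ± 0.08.

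The list of mesenchymal genes moved less, with 5 of 28 measured members higher, 4 lower and a median of -0.07. Together these calls were near the share of all genes called (31%). Besides THBS1 and FN1, ZEB1, a repressor of epithelial genes, rose by 0.64 ± 0.13. TWIST2, a transcription factor of mesenchymal cells, fell by 1.51 ± 0.16. VIM (0.31 ± 0.19), CDH2 (-0.13 ± 0.09) and SNAI2 (-0.12 ± 0.21) did not pass the test. The letters CACCTG, which ZEB and SNAIL factors bind, stood in the promoters of 7 of the 13 called epithelial genes with a promoter entry (53.8%), of 11 of the 20 members with an entry whether called or not, and of 24.5% of all genes. Of the integrins, 5 of 13 fell and 1 rose, among the falls ITGB4 (-1.76 ± 0.29), which anchors epithelia to laminin, and ITGA7 (-1.34 ± 0.17).

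The markers of the labelled cell type were checked on the same arrays. Of 11 measured markers of colon epithelium 7 fell and 0 rose, and their mean level was 7.74 to 8.32 in the HRAS arrays and 8.45 to 8.76 in the controls. KRT8 and KRT18, keratins of simple epithelia, were among the brightest probe sets, at 10.88 to 13.41 in the HRAS arrays. KRT20, LGALS4 and CDH17, markers of differentiated enterocytes, were dim in both groups. Of 7 fibroblast markers 2 rose and 3 fell, of 5 leukocyte markers 1 fell (LYZ) and of 4 endothelial markers 1 fell (VWF). Their mean levels overlapped between the HRAS arrays and the controls. Fibroblast markers averaged 5.59 to 6.20 against 5.77 to 6.20, above the array medians of 5.05 to 5.22. Leukocyte markers averaged 4.31 to 5.20 against 4.83 to 5.19, and endothelial markers 4.47 to 5.19 against 4.63 to 5.20. LUM, a fibroblast marker, read 5.26 to 7.61 in the HRAS arrays and 4.91 to 9.16 in the controls, and fell by 1.03 ± 0.29.

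Genes of colon differentiation fell in part, 11 of 26 measured against 1 that rose, with a median of -0.18. TFF3, a goblet cell peptide, fell by 1.86 ± 0.18, KLF5, a crypt transcription factor, by 1.23 ± 0.14, and CDX2, the intestinal homeobox factor, by 0.98 ± 0.14. Epithelial transport genes had 5 falls and 3 rises among 23, together near the share of all genes called (31%). Besides ANO1, the sodium channel subunit SCNN1A fell by 2.02 ± 0.26 (2.41 in replicate 1, 0.23 in replicate 2 and 2.37 in replicates 3 to 6), and the cotransporter SLC12A2 rose by 1.17 ± 0.19.

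Among the GTPases of the RAS family the smallest p was that of RAP1B, not of HRAS. Of 17 measured members 5 fell, 2 rose and 10 were not called (median -0.17), and the falls numbered 3 without replicate 3, 4, 5 or 6. The rises numbered 0 without replicate 3 and 0 with arrays averaged in pairs. RAP1B, which controls integrin adhesion, read 8.97, 9.04, 10.11, 10.14, 10.17 and 10.11 in the HRAS arrays. It read 9.72 to 10.89 in the controls and was below every control of its round in all 6 arrays. Its fall of 0.71 ± 0.09 had an adjusted p of 2.62e-09 (limma), and the fall was -1.08, -0.74 and -0.61 by round. RRAS2 fell by 0.57 ± 0.10 and RRAS by 0.93 ± 0.21, both relatives of HRAS that share some of its effectors. RAP2A fell by 0.24 ± 0.09, RAP2B rose by 0.41 ± 0.16, and DIRAS3, a RAS relative that restrains growth, rose by 0.34 ± 0.12. DIRAS3 was dim, averaging 4.47 in replicates 3 to 6 of the HRAS arm and 3.94 and 4.04 in the controls.

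Of 33 measured regulators of RAS, 9 fell and 2 rose, together near the share of all genes called (31%). ZDHHC9, a palmitoyltransferase that acts on HRAS, fell by 1.06 ± 0.17, with all 6 HRAS arrays (7.84 to 8.56) below all controls (9.07 to 10.18). The adaptors SHC1 (-0.56 ± 0.17), GAB1 (-0.30 ± 0.10) and GAB2 (-0.22 ± 0.09) and the exchange factor SOS2 (-0.38 ± 0.10) fell, and 22 of the 33 regulators were not called. The dimmer probe set of SHC1 was at 0.44 ± 0.31 and not called. The GTPase activators RASAL1 (-0.61 ± 0.09) and RASA3 (-0.57 ± 0.11), which switch RAS proteins off, fell too. Of the enzymes that process the RAS tail, the farnesyltransferase subunits FNTA (-0.43 ± 0.11) and FNTB (-0.35 ± 0.11) fell, whereas the protease RCE1 (0.28 ± 0.10) and the methyltransferase ICMT (0.76 ± 0.19) rose.

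Of 29 measured effectors 6 were higher and 4 lower, near the share of all genes called (31%), and 9 were lower without replicate 1. PIK3R3, a regulatory subunit of phosphatidylinositol 3-kinase, rose by 1.11 ± 0.15, while the subunits PIK3R1 (-0.58 ± 0.12) and PIK3CD (-0.48 ± 0.10) fell. RASSF1 rose by 0.81 ± 0.12 and RASSF5 fell by 0.65 ± 0.08; both bind active RAS proteins. KSR1, a scaffold of the ERK cascade, rose by 0.46 ± 0.09, PEBP1, an inhibitor of RAF, by 0.56 ± 0.11, and BRAP by 0.36 ± 0.09. The probe sets of KSR1 disagreed, since the next brightest was at -0.20 ± 0.08 and the dimmer ones at 0.09 ± 0.07 and 0.04 ± 0.08. PDPK1, the kinase upstream of AKT, rose by 0.32 ± 0.10 and RIN1 fell by 0.21 ± 0.08.

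Transcripts known as output of the ERK pathway were mostly lower. Of 28 measured members 17 fell and 1 rose, with a median of -0.57. IER3, an early response gene, read 11.54, 10.73, 10.82, 10.79, 10.71 and 10.73 in the HRAS arrays and 11.87 to 12.54 in the controls, with no overlap, and fell by 1.42 ± 0.11 (adjusted p = 1.96e-18, limma). PLAUR, the urokinase receptor, fell by 1.61 ± 0.17 and EPHA4, an ephrin receptor, by 1.78 ± 0.20. The feedback inhibitors DUSP6 (-1.20 ± 0.24) and SPRY4 (-0.62 ± 0.13) fell, as did PHLDA1 (-1.16 ± 0.27). SPRY2 (-0.24 ± 0.18), ETV5 (-0.20 ± 0.13), FOSL1 (-0.12 ± 0.17) and CCND1 (-0.08 ± 0.26) were not called. The median of the list was -0.03 in replicate 1, where HRAS fell most, -0.55 in replicate 2 and -0.64 in replicates 3 to 6. Of 21 immediate early genes 10 fell and 2 rose; EGR3 fell by 1.72 ± 0.20, FOS by 1.29 ± 0.30, JUNB by 0.88 ± 0.14, EGR1 by 0.83 ± 0.23 and ZFP36 by 0.70 ± 0.11. These counts rest on the vector controls: against the non-transduced arrays 1 gene of ERK output was lower and 3 higher, and 0 immediate early genes were lower and 4 higher (medians -0.09 and 0.49), where 2.79% of all genes were lower and 3.26% higher.

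Of 17 measured EGF ligands and receptors 6 fell and 1 rose (median -0.07). TGFA, a ligand of the EGF receptor, read 6.71 to 8.02 in the HRAS arrays and 7.88 to 9.28 in the controls, and was below every control of its round in all 6. Its fall was 1.38 ± 0.17. HBEGF, another ligand, fell by 0.93 ± 0.13, and ERRFI1, a feedback inhibitor of the receptor, by 1.61 ± 0.21. EREG, a further ligand, was not called at 0.65 ± 0.36. Of 24 secreted growth factors 10 fell and 0 rose. PDGFA, a platelet-derived growth factor, read 6.21, 6.90, 7.63, 7.59, 7.52 and 7.58 against 9.19 to 10.17 in the controls. It fell by 2.24 ± 0.21 (adjusted p = 5.02e-15, limma) with no overlap. FGF18 fell by 1.45 ± 0.14 and FGF9 by 1.43 ± 0.16.

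Genes of the cell cycle were higher than in the vector controls. Of 49 measured genes of G2/M and mitosis 44 rose and 0 fell (median 0.95), and of 46 genes of G1/S and replication 40 rose and 0 fell (median 0.87). CDC20, an activator of the anaphase-promoting complex, read 10.29, 9.63, 10.61, 10.61, 10.50 and 10.56 in the HRAS arrays and 7.55 to 9.57 in the controls. It rose by 1.38 ± 0.17 (adjusted p = 3.52e-10, limma). KIF20A, a kinesin of cytokinesis, rose by 1.54 ± 0.19, and BUB1B, of the spindle checkpoint, by 1.36 ± 0.17. Among replication genes, CLSPN, a replication checkpoint mediator, rose by 1.45 ± 0.15, E2F7 by 1.25 ± 0.18, ORC6 of the origin recognition complex by 1.53 ± 0.22 and RRM2, a subunit of ribonucleotide reductase, by 1.69 ± 0.31. RBL2, a pocket protein that holds cells in quiescence, fell by 1.45 ± 0.16, and the CDK inhibitors CDKN1C (-0.97 ± 0.13) and CDKN1A (-0.78 ± 0.16) fell, in a list of CDK inhibitors, pocket proteins and D cyclins with 5 falls and 3 rises among 20.

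The promoters of CDC20, PRC1 and UHRF1 are shown above. TTTGAA stood in the window of 28 of the 37 called G2/M genes with an entry (75.7%) and of 15.6% of all genes, and CCAAT in 30 of the 37 (81.1%) and in 41.7%. Among all 41 G2/M members with an entry, called or not, 30 held TTTGAA and 34 held CCAAT. GGCGGGAA stood in 11 of the 35 called G1/S genes with an entry (31.4%), in 12 of all 41 members with an entry and in 5.17% of all genes. PRC1, which bundles microtubules in anaphase, rose by 0.92 ± 0.13, and UHRF1, which maintains DNA methylation, by 1.36 ± 0.26.

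The cell cycle difference depended on which control was used. In replicate 1 the vector controls differed from the non-transduced SW620 array by a median of -1.81 over the G2/M genes, and the HRAS array differed from that array by -0.26. In replicate 2 the vector controls differed from the non-transduced array by -0.42 and the HRAS array by 1.23. Fitted against the non-transduced SW620 arrays, 0 G2/M genes and 1 G1/S gene were called, with medians of 0.22 and 0.26. In all, 1195 genes were called. That fit rests on the non-transduced arrays of replicates 1 and 2, since replicate 7 is non-transduced only and has a round term of its own. The SE was wider than against the vector controls, 0.48 against 0.28 for HRAS. Fewer calls there therefore do not show that a difference is absent. Of the 6136 genes called against the vector controls, 797 were called there with the same sign.

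Genes of the amino acid response that ATF4 drives were lower. Of 32 measured members 27 fell and 1 rose (median -0.76; -1.11, -0.88 and -0.68 by round). TRIB3, a pseudokinase induced by ATF4, read 9.54 to 9.85 in the HRAS arrays and 11.43 to 12.00 in the controls, with no overlap, and fell by 2.03 ± 0.23. CEBPB, a bZIP partner of ATF4, fell by 2.08 ± 0.21 (HRAS arrays 8.79 to 9.61, controls 11.04 to 11.81). ASNS, asparagine synthetase, fell by 2.01 ± 0.31, CHAC1, which degrades glutathione, by 1.50 ± 0.22, PHGDH and PSAT1, of serine synthesis, by 1.21 ± 0.18 and 0.84 ± 0.16. TGATGNAA stood in the promoters of 7 of the 23 called members with an entry (30.4%), of 8 of all 27 members with an entry and of 3.61% of all genes. Against the non-transduced arrays 0 members of the list were called (median -0.20). In replicate 1 the vector controls lay above the non-transduced array by a median of 1.27, and in replicate 2 they differed from it by -0.06.

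Related stress lists moved less. Of 21 genes of the unfolded protein response 8 fell and 3 rose; the sensor ERN1 fell by 1.46 ± 0.19 and its target XBP1 by 0.85 ± 0.17, while CRELD2 rose by 0.55 ± 0.11. Of 33 genes of hypoxia and glycolysis 15 fell and 0 rose, with medians of 0.12, -0.84 and -0.10 by round, so that replicate 2 stood lowest. Without replicate 2 the list had 13 falls and 10 rises, and in replicates 3 to 6 alone 17 falls and 12 rises. The glucose transporter SLC2A1 fell by 1.05 ± 0.13 and PDK1, which restrains pyruvate oxidation, by 1.28 ± 0.17. Of 20 p53 targets 7 fell and 3 rose, among the falls SESN2 (-1.07 ± 0.14) and the death receptor TNFRSF10B (-1.01 ± 0.14). Of 22 antioxidant genes of the NRF2 list 7 fell and 4 rose, and the falls numbered 9 without replicate 1 and 4 without replicate 3. SLC7A11, the cystine transporter, fell by 1.41 ± 0.25.

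Interferon-responsive genes fell in part, 16 of 44 measured against 2 that rose (median -0.19; -0.16, -0.13 and -0.22 by round). OAS1, a sensor of double-stranded RNA, read 6.12 and 6.66 in replicates 1 and 2 and 5.31 to 5.46 in replicates 3 to 6. The controls read 6.34 to 7.04 in replicates 1 and 2 and 7.25 to 7.63 in replicates 3 to 6, and the fall over all rounds was 1.47 ± 0.14. DTX3L, a ubiquitin ligase, fell by 0.85 ± 0.11. EPSTI1 fell by 1.05 ± 0.16, with -0.38, -0.09 and -1.45 by round, and PARP14 by 0.61 ± 0.11, with -0.01, -0.33 and -0.83. The interferon-stimulated response element stood in the promoters of 11 of the 14 called members with an entry (78.6%), of 27 of the 36 members with an entry whether called or not, and of 3.98% of all genes. Of 17 genes of MHC class I antigen processing 6 fell and 2 rose, among the falls PSME1 (-0.62 ± 0.09) and PSMB9 (-0.79 ± 0.16), subunits of the proteasome machinery that trims antigens. Against the non-transduced arrays 1 interferon gene was called, and it was higher.

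**Figure D3:**
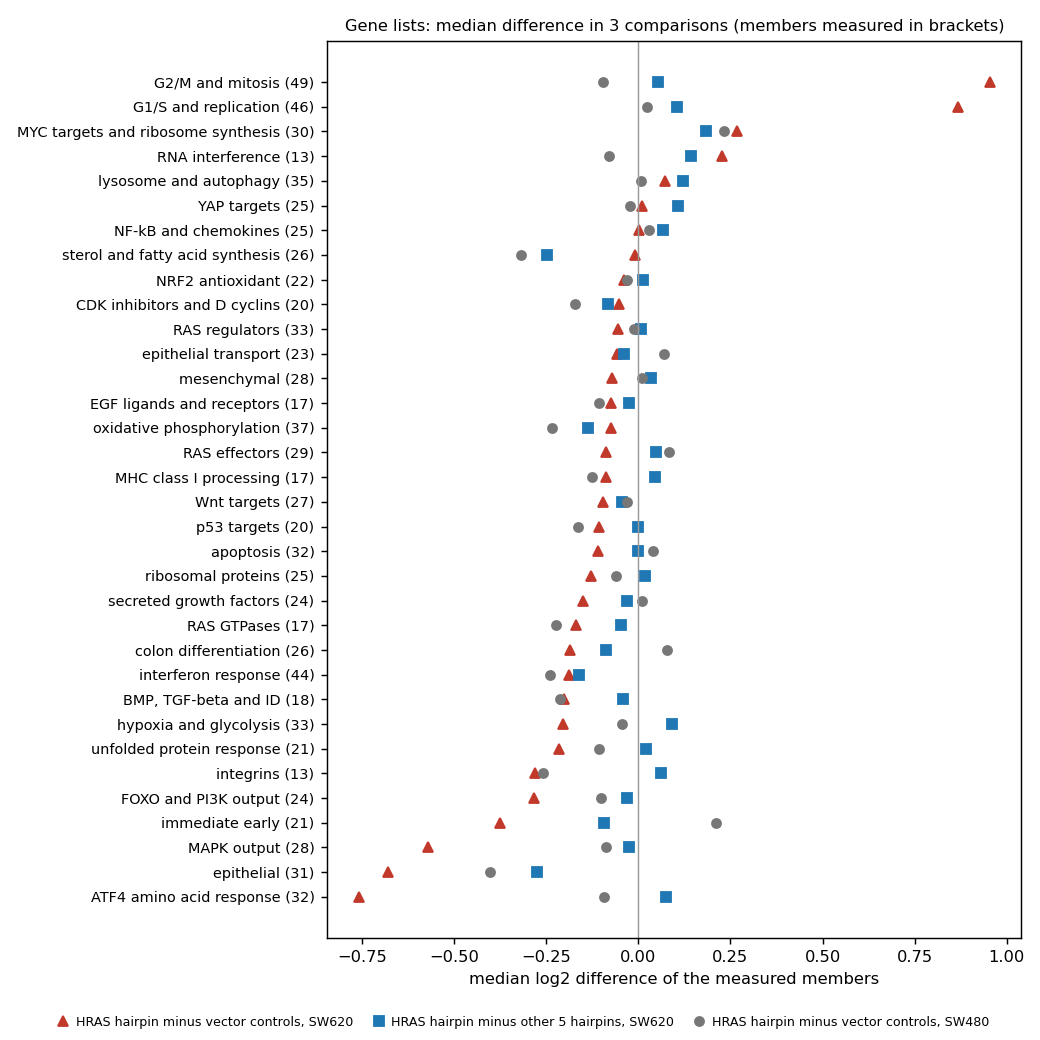
Median log2 difference of the measured members of each gene list (horizontal axis; number measured in brackets) for the HRAS hairpin against vector controls in SW620, against the other 5 hairpins in SW620, and against vector controls in SW480. The G2/M list lies at 0.95 against vector controls and 0.05 against the other hairpins, whereas the epithelial list lies below 0 in all 3 comparisons.

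Growth and metabolic genes showed smaller shifts. Of 30 measured genes of MYC targets and ribosome synthesis 15 rose and 1 fell (median 0.27), with 8 or 9 rises without replicate 3, 4, 5 or 6 and 5 with arrays averaged in pairs. UTP20 and NOP2, which act in ribosome assembly, rose by 0.88 ± 0.15 and 0.72 ± 0.14, and POLR1D, a polymerase subunit, fell by 0.95 ± 0.13. Of 25 ribosomal protein genes 10 fell and 0 rose, all by small amounts, such as RPS6 by 0.29 ± 0.04, and 6 fell without replicate 3. Of 24 genes of FOXO and phosphatidylinositol 3-kinase output 11 fell and 2 rose. ERBB3, a receptor that couples to that kinase, fell by 1.69 ± 0.25, the transcription factor KLF15 by 1.12 ± 0.11, and the kinase SGK1 rose by 1.19 ± 0.14. Sterol and fatty acid synthesis had 5 falls and 2 rises among 26, and oxidative phosphorylation 8 and 2 among 37. Their medians were 0.03, 0.77 and -0.16 (sterol and fatty acid synthesis) and -0.10, 0.26 and -0.14 (oxidative phosphorylation) by round. Without replicate 1 the sterol list had 6 falls and 7 rises, and without replicate 2 it had 9 and 3. The oxidative phosphorylation falls numbered 16 without replicate 2, 2 without replicate 3, 4, 5 or 6, and 0 with arrays averaged in pairs.

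Lysosomal and autophagy genes had 8 falls and 4 rises among 35, together near the share of all genes called (31%). Without replicate 1 there were 10 of each. CTSB, the protease cathepsin B, fell by 1.42 ± 0.12, and WIPI1, which acts at the forming autophagosome, by 1.50 ± 0.21. Of 27 Wnt targets 6 fell and 4 rose, with MSX2 at -1.04 ± 0.14 and NKD1, a feedback inhibitor, at -0.96 ± 0.16. The probe sets of NKD1 disagreed, since the next brightest was at 0.37 ± 0.11 and the dimmest at -0.01 ± 0.29. Of 25 YAP targets 4 fell and 5 rose, among them TGFB2 (1.09 ± 0.14) and PTPN14 (0.99 ± 0.16). Of 18 genes of the BMP, TGF-beta and ID list 7 fell and 2 rose, with GDF15, a stress cytokine, at -1.73 ± 0.31 and ID3 at 0.61 ± 0.08. Of 25 genes of the NF-kB and chemokine list 6 rose and 3 fell (median 0.003). The falls numbered 8 without replicate 1 and 1 without replicate 3. Among chemokines, CXCL1 rose by 0.81 ± 0.14 and CCL20 fell by 1.41 ± 0.23, the latter with 0.42 in replicate 1 and -2.12 in replicates 3 to 6. Of 32 apoptosis genes 9 fell and 4 rose, with BOK at -1.26 ± 0.16. In the small RNA machinery that hairpins themselves use, 5 of 13 genes rose and 2 fell, with AGO1 at 0.66 ± 0.11, TNRC6A at 0.83 ± 0.17 and SND1 at -0.69 ± 0.09.

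To see what differed between the HRAS hairpin and hairpins against other genes, the HRAS arrays were compared with the 29 arrays of the other 5 knockdowns in SW620. This comparison shares the HRAS arrays with the one above. It called 2542 genes (12.9%), 1139 higher (5.76%) and 1403 lower (7.09%). Of these, 1862 were called with the same sign against the controls, 73.2% of the 2542 and 30.3% of the 6136. Without the 3 degraded arrays among the 29, 3542 genes were called, and 2474 of the 2542 kept their call and sign. The level of HRAS was lower than in the other knockdowns by 1.17 ± 0.25 (adjusted p = 0.000429, limma). In replicates 3 to 6 the other knockdowns averaged 8.63 to 9.05 for HRAS, above the vector controls at 8.02 and 8.07.

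Of the 20 largest rises against controls, 11 were also higher than in the other knockdowns, and of the 20 largest falls 14 were lower. THBS1 averaged 9.80 in replicates 3 to 6 of the HRAS arm, 8.01 to 8.66 in the other knockdowns and 5.28 and 5.60 in the controls, and was higher than in the other knockdowns by 1.89 ± 0.24. FN1 averaged 10.79 in the HRAS arm, 7.93 to 9.09 in the others and 7.60 and 7.46 in the controls, a difference from the others of 1.87 ± 0.21. ESRP1 averaged 6.96 against 7.77 to 8.96 in the others, a difference of -1.89 ± 0.22. PDGFA averaged 7.58 against 8.88 to 9.32 (-1.78 ± 0.18), and RAP1B differed by -0.97 ± 0.08. The remaining genes at the top were DEFA5 (2.32 ± 0.39) and GALNT10 (1.91 ± 0.16) among the rises. Among the falls they were ANO1 (-1.89 ± 0.32), SERPINA1 (-1.79 ± 0.23), G0S2, an inhibitor of lipolysis (-1.79 ± 0.27), RFLNB, a regulator of filamin (-1.89 ± 0.24), and ADIRF (-1.87 ± 0.17).

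SCG2 and GRB10 differed more from the other knockdowns than from the controls. SCG2, a secretogranin, led the rises at 2.44 ± 0.22. Against the vector controls it rose by 1.39 ± 0.24 (3.17, 3.34 and 0.46 by round; adjusted p = 3.37e-06, limma). It averaged 8.77 in replicates 3 to 6 of the HRAS arm, 8.27 and 8.35 in the controls and 5.32 to 7.39 in the other knockdowns. GRB10, an adaptor that restrains insulin receptor signalling, was higher by 1.84 ± 0.23, while against the controls its difference was 0.05 ± 0.25 and not called.

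The gene lists divided in this comparison. Of 31 epithelial genes 11 were lower and 0 higher than in the other knockdowns (median -0.28), and of 44 interferon genes 13 were lower and 1 higher (median -0.16). Of 49 G2/M genes 3 were higher and 0 lower (median 0.05), of 46 G1/S genes 5 were higher and 2 lower (median 0.10), and of 32 ATF4 genes 3 were higher and 0 lower (median 0.07). CDC20 averaged 10.57 in replicates 3 to 6 of the HRAS arm and 10.18 to 10.84 in the other knockdowns, against 9.56 and 9.52 in the controls. TRIB3 averaged 9.56 in the HRAS arm and 8.61 to 9.94 in the other knockdowns, against 11.82 and 11.45 in the controls. DDIT4 averaged 8.23 in the HRAS arm and 7.61 to 9.30 in the other knockdowns, against 11.92 and 11.49. Of 28 genes of ERK output 6 were lower and 2 higher (median -0.02), IER3 among the lower (-0.55).

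The same hairpin target was tested in SW480, a line from the primary tumour of the same case, with controls of its own. There 5180 genes (26.2%) were called, 1971 higher (9.97%) and 3209 lower (16.2%). Of the genes called in both lines, 2308 in number, 2045 had the same sign and 263 the opposite. Across all genes the differences of both lines correlated with r = 0.44; genes are not independent replicates. The test of the difference between the lines called 3732 genes (18.9%), 2014 with a value higher in SW620 (10.2%) and 1718 with a lower one (8.69%). Of the genes called in SW620, 2232 were among them. Without the SW480 HRAS arrays of replicates 3 and 4, whose RNA quality stood apart, the counts were 3297 in SW480 and 2355 between the lines, 2123 of the latter shared with the 3732 and of the same sign. HRAS itself fell more in SW480 (-1.86 ± 0.28), and the difference between lines was 1.13 ± 0.40 (adjusted p = 0.0369, limma).

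THBS1, FN1 and CADM1 differed between the lines, and TNC was not called as different. THBS1 differed from controls by -0.12 ± 0.26 in SW480, a difference between lines of 4.22 ± 0.37 (adjusted p = 1.89e-14, limma). FN1 fell by 1.50 ± 0.23 in SW480, so that the lines moved opposite ways and differed by 4.09 ± 0.33. CADM1 was at 0.08 ± 0.19 in SW480. TNC rose by 1.43 ± 0.34 in SW480 as well, with a difference between the lines of 0.54 ± 0.48 (adjusted p = 0.469, limma). TNFRSF11B, the decoy receptor osteoprotegerin, fell by 3.24 ± 0.37 in SW480 and rose by 1.10 ± 0.37 in SW620 from a low level (3.66 to 4.76 in the controls). SRPX fell by 2.02 ± 0.20 in SW480 and rose by 0.66 ± 0.20 in SW620. TGFB2 (-0.86 ± 0.14 in SW480) and CXCL1 (-0.66 ± 0.14) also moved opposite to SW620. MAL2, an apical transport protein, fell by 2.64 ± 0.20 in SW480, while in SW620 it was dim in the HRAS and vector control arrays (3.47 to 3.84) and not called.

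Several of the largest falls in SW620 were larger there than in SW480. DDIT4 was at -0.69 ± 0.39 in SW480, LEMD1 at -0.77 ± 0.49, TUBB2B at -0.32 ± 0.30, IGFBP1 at 0.04 ± 0.28 and BEAN1 at -0.29 ± 0.27, each not called there. The difference between the lines was called for each, at -2.85 ± 0.55 for DDIT4, -2.89 ± 0.69 for LEMD1, -2.88 ± 0.43 for TUBB2B, -3.20 ± 0.39 for IGFBP1 and -2.77 ± 0.38 for BEAN1. Over all arrays of both lines IGFBP1 averaged 4.62 and BEAN1 5.02. In replicates 3 to 6 of SW620 the controls averaged 7.55 and 7.58 for IGFBP1 and 7.54 and 7.55 for BEAN1. The HRAS arm averaged 4.09 and 4.16 there. Whether low levels in SW480 limited the falls in that line was not tested. FGFR3, an FGF receptor, fell by 2.28 ± 0.28 in SW620 and was at 0.29 ± 0.28 in SW480 (difference -2.57 ± 0.40). In contrast ESRP1 (-2.84 ± 0.24 in SW480) and SERPINA1 (-2.91 ± 0.26) fell in both lines, with differences between the lines of 0.17 ± 0.34 and -0.02 ± 0.37 that were not called. Of the 20 largest falls in SW620, 10 were called as falls in SW480 and 0 as rises, and of the 20 largest rises 4 were called as rises and 2 as falls.

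By list, 39 of 49 G2/M genes and 31 of 46 G1/S genes were called in the test between the lines, all in favour of SW620, and the SW480 medians were -0.10 and 0.02. Of 32 ATF4 genes 23 were called, all lower in SW620, with an SW480 median of -0.09. Without the SW480 HRAS arrays of replicates 3 and 4 these counts were 26, 15 and 15, in the same directions. The epithelial list fell in both lines (17 of 31 lower and 0 higher in SW480, median -0.40; 15 and 0 without the SW480 HRAS arrays of replicates 3 and 4), and 6 of its members were called between the lines. The interferon list fell in SW480 as well (19 lower and 2 higher, median -0.24). Of the ERK output genes 7 fell and 3 rose in SW480 (median -0.09).

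**Figure D4:**
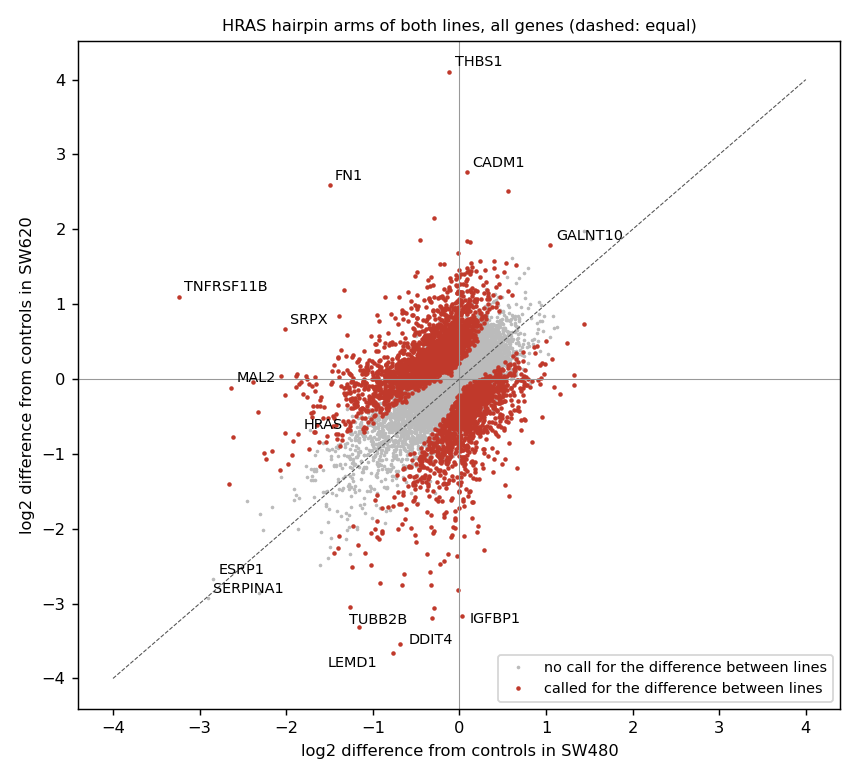
Log2 difference of the HRAS hairpin from vector controls in SW480 (horizontal axis) and SW620 (vertical axis), 1 point per gene. Red points are the 3732 genes called for the difference between lines and grey points the rest; the dashed line marks equal differences. THBS1, CADM1 and FN1 lie high above the dashed line, and ESRP1 and SERPINA1 lie close to it.

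Because the hairpin code differs, the HRAS arrays of replicates 3 to 6 were compared with that of replicate 1. The shift between rounds was taken from all other SW620 arrays, the other knockdowns included, so the values differ from those against the vector controls of each round alone, which are given beside them. Replicate 1 is a single array and was assumed to vary like the others. This called 69 genes (0.349%), 35 higher (0.177%) and 34 lower (0.172%) in replicates 3 to 6. HRAS was not among them (0.72 ± 0.68, adjusted p = 0.882, limma). Against only the vector controls of each round, the fit of the 18 HRAS and vector control arrays, the HRAS difference was 1.57 ± 0.10 (adjusted p = 1.99e-10, limma) and 6029 genes were called. ANXA1, annexin A1, read 10.00 in the HRAS array of replicate 1 against 6.95 and 6.45 in its controls. It read 7.90 to 8.09 in replicates 3 to 6 against 8.35 to 8.59, so that it was higher than controls in the first round and lower in the last (-3.83 ± 0.74, adjusted p = 0.00228, limma; -3.78 with vector controls alone). EREG, the EGF receptor ligand epiregulin, read 8.41 against 4.79 and 3.64 in replicate 1, 4.09 against 3.87 and 3.90 in replicate 2, and 7.37 to 7.49 in replicates 3 to 6, between the empty vector (8.01 to 8.25) and the non-target arrays (6.87 to 7.13). Its difference was -3.18 ± 0.79, and -4.32 with vector controls alone. DKK1 (-2.89 ± 0.68), PLK2, a stress-induced kinase (-2.58 ± 0.42), ELK3, an ETS factor (-2.56 ± 0.48), and the chemokine CXCL6 (-2.48 ± 0.52) also stood higher, relative to controls, in replicate 1.

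The opposite pattern held for genes that were low in replicate 1. SMOC2, a matrix protein of intestinal stem cells, read 4.97 in the HRAS array against 8.03 and 7.30 in its controls. It read 8.73 in replicate 2 and 8.17 to 8.30 in replicates 3 to 6, near the controls there (8.32 to 8.62), a difference of 2.73 ± 0.41 (adjusted p = 1.68e-05, limma; 2.45 with vector controls alone). INHBB, a subunit of activin, read 7.13 against 10.50 and 10.06 in replicate 1 and 9.59 to 9.67 against 9.88 to 10.08 in replicates 3 to 6 (2.24 ± 0.39; 2.80 with vector controls alone). ASCL2, the transcription factor of intestinal stem cells, read 6.95 against 9.41 and 9.21 in replicate 1 and 9.55 to 9.60 against 9.09 to 9.34 in replicates 3 to 6 (1.92 ± 0.48; 2.70 with vector controls alone). CGNL1, a junction protein (1.97 ± 0.46), CPE, a carboxypeptidase of secretory granules (1.89 ± 0.41), and TENT5C, a poly(A) polymerase (1.74 ± 0.35), also stood lower, relative to controls, in replicate 1. With vector controls alone the differences of the 12 genes named kept their sign, and the count of 69 became 395 when replicate 2 was left out.

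**Figure D5:**
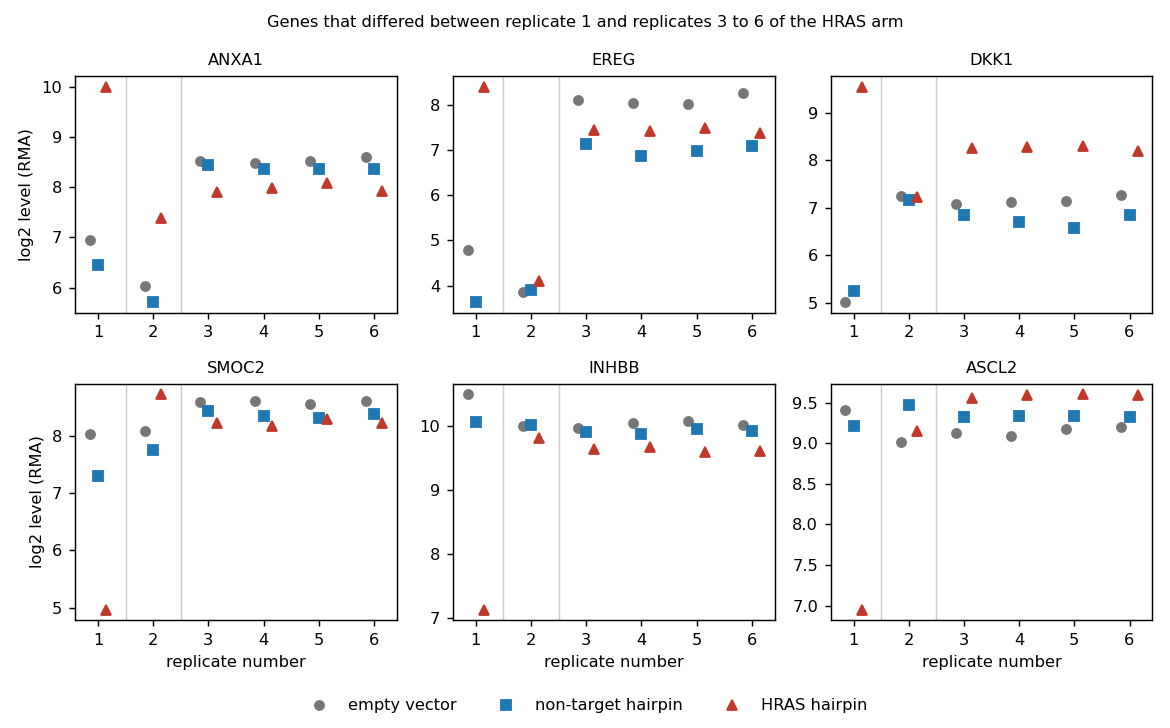
Log2 level of ANXA1, EREG, DKK1, SMOC2, INHBB and ASCL2 (vertical axis, with a scale of its own in each panel) in each array by replicate number, for the empty vector, the non-target hairpin and the HRAS hairpin in SW620. In replicate 1 the HRAS array stands above its controls for the upper panels and below them for the lower ones; in replicates 3 to 6 these distances are smaller or turned.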

How the data were processed

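Total RNA was hybridised to 1-colour Affymetrix arrays. Per the submitters' processing notes, the authors made the deposited log2 values with RMA (background correction, quantile normalisation and a summary per probe set); whether all arrays were normalised together is not given in the sources used here. Of 54675 probe sets, 41097 named 1 gene through the platform annotation. The brightest was kept for each of 19775 genes. Nothing was renormalised. The number of arrays limits the precision.

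One model in limma 3.58.1 (R 4.3.3) took every array, with a coefficient for each group and a term for round within each line, and its variances were moderated by eBayes (trend and robust settings). Tests were two-sided, with Benjamini-Hochberg adjustment over all genes and a threshold of 0.05. Adjusted p-values come from this model, with no replicate block, unless another fit is named. A difference is log2, the HRAS arm minus its comparison, ± SE. On simulated data with 200 changed genes among 19775, changes of 0.5, 1 and 2 were recovered in 83.6%, 98.5% and 100% for the comparison with controls. The rates were 73.1%, 100% and 100% against the other knockdowns and 43.3%, 92.5% and 100% between the lines. They were 13.4%, 67.2% and 92.4% between replicates 3 to 6 and replicate 1. Of the genes called, 4.08%, 4.71%, 5.99% and 7.26% were false, in the same order. The simulated noise was independent between arrays, and each shift was equal in every HRAS array it entered. In the data replicates 3 to 6 lie close together and the rounds differ, so these rates may be too favourable.

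Same-numbered arrays deviated together over replicates 1 to 6 (r of 0.77 to 0.97), which the rounds give, and not within replicates 3 to 6 (r of -0.16 to 0.06), so the numbers were not taken as pairs. The root mean square SD was 0.105, 0.104 and 0.108 within replicates 3 to 6 of the HRAS, empty vector and non-target arms. Gene names followed a rule: the genes aimed at, the 20 largest rises and falls with 1 sign in every round, the 3 members with the smallest p per list, the 6 largest each way per difference and all called RAS family genes, regulators and effectors. Beyond it, further list members were named after their values were seen, among them CDH1, ZEB1, DUSP6, FOS, ASNS and the genes whose promoters are shown. Members, lists and tests were chosen with earlier results of these data known.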

Additional observations from a re-analysis of the deposited data

Results flagged for a closer look

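Several genes had 1 HRAS array that stood apart from the other 5, measured as its difference from the controls of its round. Of 50 genes examined 22 did, 10 at replicate 1 and 12 at replicate 2. The limit used flags about 1 in 20 groups by chance when all 6 values share 1 spread. That rate does not hold here, since replicates 3 to 6 lie close together and a shift between rounds flags replicate 1 or 2. At replicate 1 the value was -1.99 for HRAS, -0.41 for MAP2K2, 0.32 for FN1, 4.41 for DKK1, -1.69 for IGFBP1, -4.15 for CST7, -4.63 for ASS1, -3.91 for INHBE, -3.96 for FGF19 and -3.08 for LRATD2. At replicate 2 it was 0.72 for CDK5, 2.53 for CHGB, 2.50 for GALNT10, 2.68 for MCM10, 2.45 for SNRNP25, 2.12 for ORC6, -1.13 for MSLN, -0.73 for G0S2, -0.83 for IL20RB, -1.95 for GRB10, -0.38 for RFLNB and -1.20 for ADIRF.

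The difference from controls was called as unequal between SW620 and SW480 (SW620 minus SW480) for HRAS at 1.13, TNFRSF11B at 4.34, THBS1 at 4.22, FN1 at 4.09, SRPX at 2.68, CADM1 at 2.68, MAL2 at 2.52, IGFBP1 at -3.20, LEMD1 at -2.89, TUBB2B at -2.88, DDIT4 at -2.85, BEAN1 at -2.77 and FGFR3 at -2.57. Within the HRAS arm, replicates 3 to 6 minus replicate 1, with the shift between rounds taken from the other SW620 arrays, was called for SMOC2 at 2.73, INHBB at 2.24, CGNL1 at 1.97, ASCL2 at 1.92, CPE at 1.89, TENT5C at 1.74, ANXA1 at -3.83, EREG at -3.18, DKK1 at -2.89, PLK2 at -2.58, ELK3 at -2.56 and CXCL6 at -2.48. Hairpin code and round change together there and cannot be told apart.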

How the results depend on the processing

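Calls rested on replicates 3 to 6 and on the vector controls. Of 191 gene results followed, 132 kept their call and direction under the alternatives other than replicates 1 and 2 alone and those added after seeing the data, and 12 when replicates 1 and 2 alone were included. Calls are given in the order HRAS against controls, against the other knockdowns, between the lines, replicates 3 to 6 against replicate 1, and non-target against empty vector (6136, 2542, 3732, 69 and 1), and list members called (433). The replicate block gave 5879 (5877 of them shared with the 6136), 2289, 3398, 34 and 1, and 6 of the gene results lost their call; the HRAS call held (adjusted p = 0.048). No term for round gave 1958, 485, 380, 28 and 0, and 207 list members. Arrays averaged in pairs gave 2910, 740, 564 and 9, and 272 list members. Replicates 3 to 6 alone gave 10518, 6929, 9934 and, for the controls, 831, and 671 list members; replicates 1 and 2 alone gave 33, 18, 0 and 0, and 7 list members. Fits of only the compared groups gave 5885 between the lines, 6029 and 971. The non-target hairpin alone gave 1984 between the lines, genes above the 40th percentile 42 for replicates 3 to 6 against replicate 1, the mean of all probe sets 3 and a second quantile normalisation 5 for the controls. Without the degraded arrays the last counts were 160 and 10. Leaving out the SW480 HRAS arrays of replicates 3 and 4, chosen after seeing the data, gave 2355 between the lines. Against non-transduced arrays 1195 genes and 83 list members were called. Leaving out 1 replicate number gave 4581 to 7726, 1544 to 3729, 1747 to 5819, 16 to 395 and 1 to 14, and 358 to 519 list members. The 5819 came without replicate 1, which also gave 5 for the controls, and the 395 and 14 without replicate 2. Without replicate 3, 4, 5 or 6 the counts were 1544 to 1614 against the other knockdowns, 1747 to 2419 between the lines and 16 to 23 within the HRAS arm.

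The HRAS difference lost its call at -0.74 with no term for round (adjusted p = 0.143) or SW620 arrays only (0.0871), at -0.75 and -0.73 with the empty vector or the non-target hairpin alone, at -0.72 after a second quantile normalisation, at -0.90 with arrays averaged in pairs, at -1.37 in replicates 1 and 2 alone and at -1.39 against non-transduced arrays. It was -0.81 to -0.49 without 1 replicate number, -0.49 without replicate 1.

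Signs turned against non-transduced arrays for CDK5 (-0.54), MAP2K1 (0.13), JUNB (0.073), ERRFI1 (0.90), HBEGF (0.43), KLF5 (0.14), TNFRSF10B (0.21), ERN1 (0.11), XBP1 (0.19), POLR1D (0.077), NFE2L2 (0.073), GDF15 (0.29), RAP2A (0.33), GAB2 (0.012), SOS2 (0.43), FNTA (0.20) and RCE1 (-0.012). They also turned for CDK5 in replicates 3 to 6 alone (-0.012) and for CCL20 (0.0097) and PIK3CD (0.0014) in replicates 1 and 2 alone. The cause of these changes was not tested. The alternatives with non-transduced arrays and without degraded arrays were chosen after seeing the data. Of 68 counts by list and direction, 27 moved by over 1.5 times when 1 replicate number was left out, 6 of them among the 34 counts of 5 or more.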
